A study of Rattus norvegicus with 2 samples.

Results

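The cytosolic ribosomal proteins are the protein parts of the ribosomes that translate nuclear genes. They were followed here in rat esophagus, together with Rpl3l, the form of Rpl3 known from striated muscle. Members were the genes whose current symbol is Rpl or Rps with a number, or Rplp0, Rplp1, Rplp2 or Rpsa. Kinases named Rps6k, mitochondrial ribosomal proteins and pseudogenes were left out, and so was Rpl-1, a placental lactogen. Only probe sets annotated to 1 gene were used, and each gene was represented by its brightest one. This gave 48 of the 14217 genes with such a probe set, 33 of the large subunit and 15 of the small subunit.

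The samples were esophageal tissue of male Sprague-Dawley rats, 5 to 6 weeks old when obtained. Sprague-Dawley is an outbred laboratory strain. One group received OSU-HDAC42, an inhibitor of histone deacetylases (enzymes that take acetyl groups off histones and other proteins), by gavage. The rats got 7 doses of 50 mg/kg, 350 mg/kg in total. Tissue was taken on day 15, when 24 hours had passed since dosing ended. The other group received vehicle by the same route and schedule. Each group had 1 Affymetrix Rat Genome array, whether of 1 rat or of pooled rats is not said in the labels, so the spread between rats is unknown and no p-value was computed. Which layers of the esophagus went into the RNA is not given.

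Ribosomal proteins are made in nearly equal amounts in every growing cell, and their mRNAs are among the most abundant of any tissue. Most of these mRNAs begin with a cytosine followed by a run of pyrimidines, the terminal oligopyrimidine tract (TOP), through which the kinase mTOR and the RNA-binding protein LARP1 set their translation. In skeletal muscle and heart, Rpl3l takes the place of the ubiquitous Rpl3, a protein close to the centre where peptide bonds form.

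The first bases of several members are shown because they display this shared start and the contrast with the muscle form. Each window holds 10 bases before and 20 bases from the RefSeq start site in the rat assembly GRCr8, and capitals mark a C followed by at least 4 pyrimidines. The tract of Rpl34 begins before its window, so its first C is not shown.
Rpl35a (chr11:81235002-81235031, minus strand): tcttgCCTTCCTCTTTCCgccatcttggcg
Rpl19 (chr10:83519054-83519083, plus strand): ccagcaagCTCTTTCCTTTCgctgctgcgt
Rps15 (chr7:10068096-10068125, minus strand): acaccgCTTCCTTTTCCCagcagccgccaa
Rpl34 (chr2:221962264-221962293, minus strand): TCCTTTTCCTCTTCCggggacggtgcttag
Rplp0 (chr12:46718371-46718400, minus strand): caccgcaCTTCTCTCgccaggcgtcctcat
Rpl3 (chr7:113507971-113508000, minus strand): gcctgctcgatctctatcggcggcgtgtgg
Rpl3l (chr10:14258436-14258465, plus strand): ctggtgcctggtggggaggtCCCTTCCTaa
Rps27l (chr8:76443648-76443677, plus strand): ttcatttgtcattatttgtggtgtccagag

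Of the 48 members, 43 had an entry among the RefSeq start regions. Among the 37 of these that are not paralogs of another ribosomal protein, 12 (32.4%) had such a C as the annotated first base. Of all 33469 start regions, 2.63% did. That C may lie inside a longer run that began before the start, as in Rpl35a, Rpl19, Rps15, Rpl34 and Rplp0. With the C allowed within 5 bases of the start, 21 (56.8%) had it, against 17.0% of all regions. Rpl3 and Rps27l showed no such tract in the printed window, and that of Rpl3l began only at base 11. Annotated starts can be off by several bases, so a missing tract says only that these letters were not found there.

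The ubiquitous ribosomal protein genes differed little between the arrays, and Rpl3l stood at 0.334 of its vehicle intensity in the OSU-HDAC42 sample. In all, 45 members passed the expression floor, an intensity of 49.1 (the median over probe sets) on at least 1 array. Their log2 differences, OSU-HDAC42 minus vehicle, had a median of -0.051 and middle values (lower to upper quartile) from -0.17 to 0.014. Of the 45 members, 40 (88.9%) lay within 1.2-fold, whereas 50.7% of all 9560 genes above the floor did. The members are bright, with 35 of them at a mean intensity of at least 4096, and only 3.29% of genes above the floor were that bright. Among the 280 other genes past that cutoff 88.6% lay within 1.2-fold as well, so this share did not set the members apart from them. Brightness was matched by the cutoff alone. Median intensities (OSU-HDAC42, vehicle) were 7654 and 8072 for the 35 members, and 5325 and 5286 for the 280 other genes.

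More members were lower than higher, 33 against 12. Over all genes above the floor, 52.8% were lower by any amount and 46.7% higher. Of the 35 members with a mean intensity of at least 4096, 26 were lower and 9 higher, with a median of -0.050, while the other genes of that brightness were lower in 50.0% and higher in 49.3% of cases. The lower share of members was 73.3% as deposited, 62.2% with each array centred on its own median or with quantile normalization, and 75.6% with a lowess trend removed. Over all genes above the floor that share was 52.8% as deposited, 50.5% centred, 53.2% with quantile normalization and 53.9% without the lowess trend. Probe sets of one member differed among themselves with an SD of 0.14 (11 probe sets of 5 genes), which is the error of a single probe set and not of a median over genes. With 1 array per group, whether the shift exceeds the spread between rats could not be tested.

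**Figure D1:**
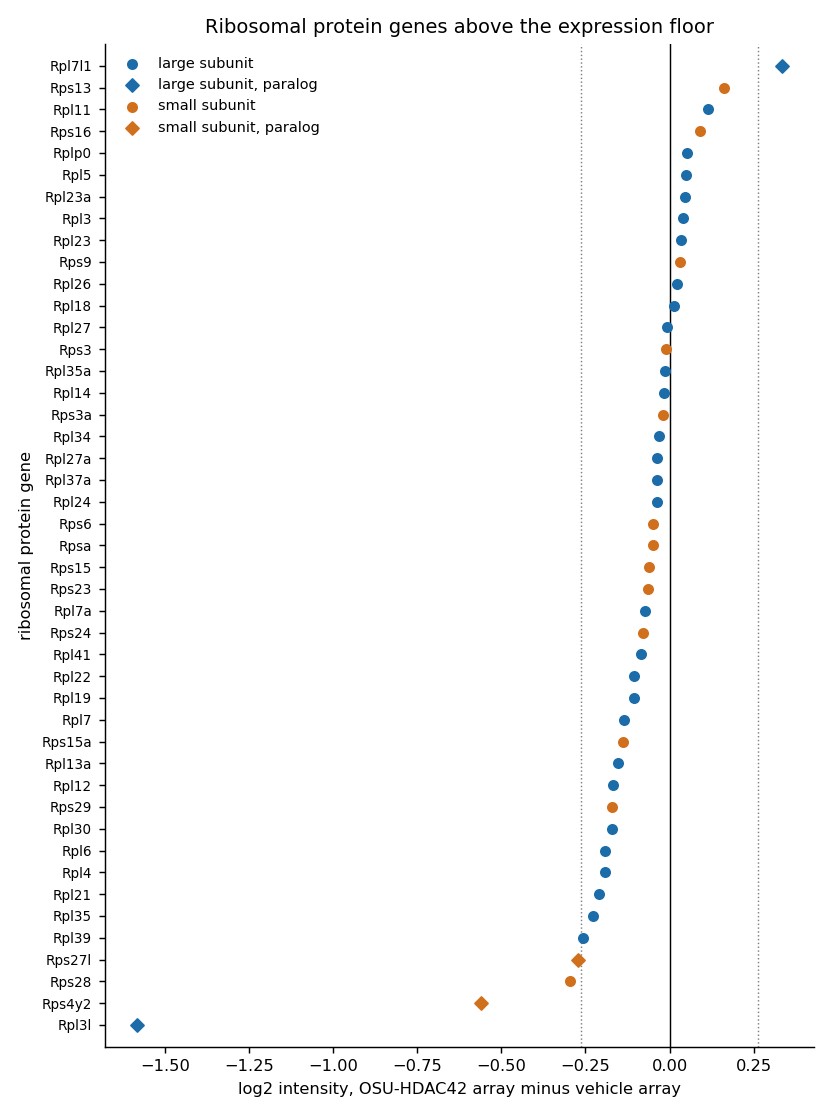
Log2 intensity difference, OSU-HDAC42 array minus vehicle array, for the 45 ribosomal protein genes above the expression floor, 1 point per gene, blue for the large and orange for the small subunit, diamonds for paralogs, dotted lines at 1.2-fold. Most points lie between the dotted lines, Rpl3l lies far to the left at -1.58 and Rpl7l1 is the only gene to the right of them.

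At least 1.2-fold lower were 4 members, namely Rpl3l, Rps4y2, Rps28 and Rps27l, and 1, Rpl7l1, was at least 1.2-fold higher. Of all genes that passed the floor, 27.4% were lower and 21.9% higher by 1.2-fold or more. Of the bright genes outside the family, 5.36% were lower and 6.07% higher by that much, and 0.357% reached 1.5-fold in each direction. At 2-fold, Rpl3l was the only member, where 3.17% of all genes were lower and 1.88% higher by that much. Of these 5 genes, 4 are paralogs of another ribosomal protein, and Rps28 is the only one that is not. The paralogs above the floor were dimmer as a set, with median intensities of 234 with OSU-HDAC42 and 445 with vehicle. The other members had 7252 and 7321, and the part of brightness in this split was not tested.

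Rpl3, the ubiquitous form, read 8142 with OSU-HDAC42 and 7918 with vehicle. Rpl3l read 56.7 and 169.8, in the same order, which is OSU-HDAC42 before vehicle here and below. Rpl3 was thus nearly level at 0.040 on the log2 scale and Rpl3l was lower by far, with a log2 difference of -1.58. The second probe set of Rpl3, dimmer at 229 and 248, differed by -0.12, so that the direction for Rpl3 itself was not the same in both. Rpl3l minus Rpl3 came to -1.62 on the log2 scale, a 3.08-fold change of one against the other. The levels of these genes are not compared, since probes differ in how strongly they respond.

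Only 58 of the 9560 genes above the floor, taken at any brightness, had a lower difference than Rpl3l. Rpl3l was read by 1 probe set, and its value of 56.7 with OSU-HDAC42 lay close to the floor of 49.1. Its difference was close to the median of -1.52 over the 20 genes listed as skeletal muscle markers, all of which were lower, 15 of them at least 2-fold. Over all genes above the floor, 52.8% were lower and 3.17% at least 2-fold lower. Of the 20, 8 had a lower difference than Rpl3l, among them the fast-fibre alpha-actinin Actn3 at -2.09, the AMP deaminase Ampd1 at -2.07 and the giant sarcomere protein Ttn at -1.94. The summed intensity of that list was 18115.5 with OSU-HDAC42 and 38086.1 with vehicle. In bulk tissue, fewer muscle fibres and less RNA per fibre cannot be told apart, and the part of the muscle list's shift in the value of Rpl3l was not tested. The next lowest member was Rps4y2 at -0.56, and without Rpl3l the SD over the remaining 44 members was 0.14, against 0.48 over all genes above the floor and 0.17 over the 280 other genes with a mean intensity of at least 4096. The 35 members past that cutoff had an SD of 0.097, but as a set they were brighter than those 280 genes.

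**Figure D2:**
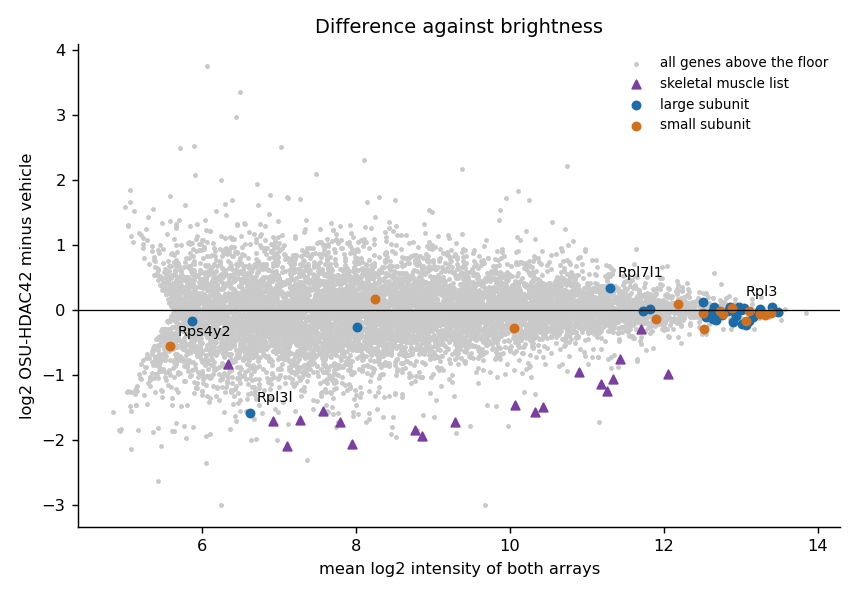
Log2 difference, OSU-HDAC42 minus vehicle, against the mean log2 intensity of both arrays; grey points are all 9560 genes above the expression floor, blue and orange the members of the large and small subunit, triangles the 20 skeletal muscle genes. Most members form a narrow band at the bright end near 0, and Rpl3l lies at lower brightness among the muscle genes.

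The elongation factor eEF1A, which carries aminoacyl-tRNA to the ribosome, also has a ubiquitous form (Eef1a1) and one known from muscle and neurons (Eef1a2). Eef1a1 had 7727 with OSU-HDAC42 and 8348 with vehicle, a log2 difference of -0.11. Eef1a2 had 75.6 and 116.8, a log2 difference of -0.63. In this pair Eef1a2 was lower by 0.52 (log2 -0.52) relative to the ubiquitous form, a smaller gap than between Rpl3l and Rpl3. Eef1a2 was dim on both arrays, with the floor at 49.1. A drop of 1.5-fold or more is not rare, as 10.9% of the genes that passed the floor had one. Whether this gap is related to that of Rpl3l was not tested.

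**Figure D3:**
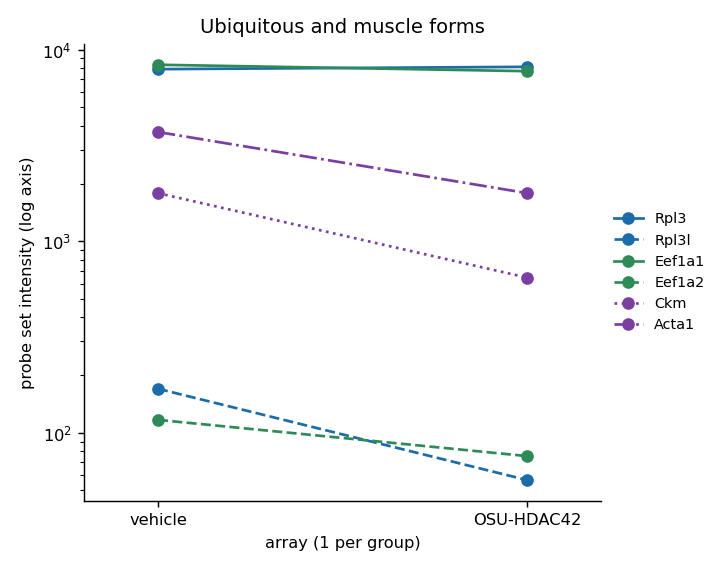
Probe set intensity (log axis) on the vehicle and the OSU-HDAC42 array for Rpl3 and Rpl3l, Eef1a1 and Eef1a2, and the muscle genes Ckm (muscle creatine kinase) and Acta1 (skeletal actin), 1 array per group. Slopes may be compared and heights of different genes may not; the lines of Rpl3l, Ckm and Acta1 slope down steeply, that of Eef1a2 less so, and those of Rpl3 and Eef1a1 are nearly flat.

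The regions before the start sites of Rpl3 and Rpl3l are shown because these genes differed so much between the arrays. Each holds the 250 bases before the RefSeq start (GRCr8), and capitals mark CANNTG, the E-box bound by basic helix-loop-helix factors such as the myogenic regulators, which reads the same on both strands.
Rpl3 (chr7:113507991-113508240, minus strand): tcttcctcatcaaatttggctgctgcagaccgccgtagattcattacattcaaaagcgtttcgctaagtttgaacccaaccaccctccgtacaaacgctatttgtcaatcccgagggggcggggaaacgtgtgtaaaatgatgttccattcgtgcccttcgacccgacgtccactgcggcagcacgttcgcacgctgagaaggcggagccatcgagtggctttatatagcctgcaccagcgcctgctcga
Rpl3l (chr10:14258196-14258445, plus strand): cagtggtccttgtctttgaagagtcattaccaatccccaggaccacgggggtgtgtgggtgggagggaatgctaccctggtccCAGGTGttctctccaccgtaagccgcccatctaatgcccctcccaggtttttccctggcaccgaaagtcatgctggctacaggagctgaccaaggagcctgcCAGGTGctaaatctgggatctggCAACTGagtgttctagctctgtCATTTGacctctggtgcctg

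Rpl3l had 4 E-box matches in this stretch and Rpl3 had 0. At least 1 was found in 65.5% of all start regions and in 45.9% of the 37 members that are not paralogs. At least 4, a cutoff taken from the count of Rpl3l itself, were found in 3.20% and 0.0%. Rpl34 and Rps3, among the 37, had 3 each. The same stretch held 4 CpG dinucleotides for Rpl3l and 21 for Rpl3, where those 37 members had a median of 18 and all start regions a median of 5. A match is a run of letters, and nothing was measured at these sites. In the RefSeq gene order, Rpl3l lies next to Ndufb10, a subunit of respiratory complex I, and Rps2 lies on the far side of Ndufb10. Ndufb10 differed by 0.061 (1885 with OSU-HDAC42 and 1807 with vehicle) and Msrb1, a methionine sulfoxide reductase on the other flank of Rpl3l, by 0.25, so neither neighbour was lower.

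The other paralogs did not move as one. Rpl7l1, a paralog of Rpl7, had 2839 with OSU-HDAC42 and 2251 with vehicle, the highest difference of any member at 0.33. Its second probe set, at 1993 and 1909, differed by only 0.062. Rpl7 itself was lower, with 6093 against 6696 (log2 -0.14), and its second probe set, at 4225 and 4851, differed by -0.20. Both probe sets of Rpl7l1 were higher and both of Rpl7 lower, but the size for Rpl7l1 depended on the probe set. Rps27l, a paralog of Rps27 known as a p53-inducible gene, had 967 and 1168, a log2 difference of -0.27. Rps4y2, a paralog of Rps4x, was dim, with 39.4 and 58.1, and only the vehicle array passed the floor (log2 -0.56). Rpl26l1, at 29.9 and 31.3, was under the floor on both arrays, and Rpl39l1, at 12.3 and 9.7, was under 16 on both, so no difference could be measured for it. Rpl28, at 18.8 and 17.2, was the third member under the floor, although Rpl28 is a ubiquitous ribosomal protein.

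In the large subunit, 21 of the 30 members above the floor were lower and 9 higher, with a median of -0.038. The shares over all genes above the floor were 52.8% lower and 46.7% higher. Rplp0 and Rpl12 form the base of the stalk that recruits translation factors. Rplp0, a frequent reference gene in quantitative PCR, had 7535 with OSU-HDAC42 and 7265 with vehicle (log2 0.053). Rpl12 had 8344 and 9376 (log2 -0.17). Only these 2 of the 4 listed stalk genes were measured. Their directions differed, but the value of Rplp0 was smaller than the probe set SD of 0.14. Rpl5 and Rpl11, which carry 5S ribosomal RNA and bind Mdm2 when ribosome assembly fails, were both slightly higher. Rpl5 had 10995 and 10638 (log2 0.048), and Rpl11 had 6058 and 5593 (log2 0.12).

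Of the 6 measured proteins that line the tunnel and exit for the growing chain 4 were lower, beside 73.3% of all members and 52.8% of all genes above the floor. Rpl35, at the exit, had 7923 against 9280 (log2 -0.23), the lowest value of any bright member of the large subunit. Rpl4, whose loop reaches into the tunnel, had 8083 against 9229 (log2 -0.19). Rpl39, a very small tunnel protein, was measured by a dim probe set with 236 and 282 (log2 -0.26). Rpl19 followed at -0.11, whereas Rpl26 and Rpl23a were slightly higher at 0.022 and 0.046. Further large subunit members with lower values were Rpl21 at -0.21 (7683 and 8887), Rpl6 at -0.19 (7140 and 8148) and Rpl13a at -0.15 (6206 and 6905). Level within 0.04 on the log2 scale were Rpl18, Rpl23, Rpl24, Rpl27, Rpl27a, Rpl34, Rpl35a, Rpl37a and the brighter probe set of Rpl14. The sign for Rpl14, Rpl18, Rpl27, Rpl27a, Rpl34 and Rpl35a, and in the small subunit for Rps3 and Rps3a, turned under another scaling between the arrays. The dimmer probe set of Rpl14, at 258 and 325, differed by -0.33.

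In the small subunit, 12 of 15 members above the floor were lower and 3 higher, with a median of -0.060. The shares over all genes above the floor were 52.8% lower and 46.7% higher. Rps28, near the exit of the mRNA channel, had 5321 with OSU-HDAC42 and 6529 with vehicle and was 1.23-fold lower (log2 -0.30), the lowest of the members that are not paralogs. Rps29, a zinc-binding protein of the head, had 8086 and 9110 (log2 -0.17), and Rps15a had 3636 and 4000 (log2 -0.14). Rps6, the protein phosphorylated by the S6 kinases, had 10575 and 10946 (log2 -0.050). Rps3, at the mRNA entry, was level at -0.012. The members above 0 were Rps13 at 0.16, Rps16 at 0.091 and Rps9 at 0.032. Rps13 was read by a dim probe set at 321 and 287, and a bright one, shared with copies of the gene, differed by -0.12.

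Rpsa, the laminin receptor homologue of the small subunit, had 3 probe sets that differed by -0.051, 0.11 and -0.029. Their directions split although the brighter ones had near-equal intensities of 5697 and 5671 on the OSU-HDAC42 array, with 5900 and 5257 on the vehicle array. Rps24, one of the genes mutated in Diamond-Blackfan anaemia, an inherited failure of red cell production, differed by -0.080. Of the 10 genes listed for that disease 5 had a probe set of their own, 3 higher and 2 lower, all within 0.12 on the log2 scale. Over all genes above the floor, 52.8% were lower and 46.7% higher. Genes read only by probe sets shared with copies are not in this count, such as Rps26 at -0.29, Rps7 at -0.11 and Rps19 at -0.078. Of all such shared probe sets, 20 were lower and 9 higher.

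The subunits lay close together. The median of the large subunit lay 0.022 above that of the small subunit on the log2 scale, and the sign turned with quantile normalization (-0.016). The gap has no measured error between rats. Members with the pyrimidine tract within 5 bases of their start (20 genes, paralogs left out) had a median of -0.049 and those without it (16 genes) one of -0.044.

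Many ribosomal proteins have near-identical copies in the rat genome, and their probe sets are annotated to several genes, which kept them out of the member list. There were 29 such probe sets in 25 families, 20 lower and 9 higher, with a median of -0.082. With the brightest probe set of each of the 25 families, 17 were lower and 8 higher. Over all genes above the floor, 52.8% were lower and 46.7% higher. Rps26 had 6588 with OSU-HDAC42 and 8057 with vehicle (log2 -0.29), Rps18 4894 and 5755 (log2 -0.23), and Rpl10a 6961 and 6337 (log2 0.14). A dim probe set of the Rpl37 family had the lowest value at -0.55 (136.8 and 200.1), while the bright one of the family differed by -0.21. The values for Rps2, the ribosomal protein gene closest to Rpl3l, were 0.090 and -0.16 on its shared probe sets. They ran from -0.55 to 0.14, and members other than Rpl3l from -0.56 to 0.33. Signal of a gene and of its copies cannot be told apart on them.

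Among other genes of translation, Rack1, a scaffold protein on the small subunit head, had 9544 and 8513 and was slightly higher at 0.16. Of 24 initiation factor genes 15 were lower and 9 higher (median -0.031), and 0 reached 1.5-fold. The largest values among them were those of the eIF3 subunits Eif3b at -0.51 and Eif3c at -0.28 and the helicase subunit Eif4a1 at -0.32. Elongation factors had a median of 0.082 over 7 genes, with Eif5a, which helps the ribosome past proline runs, at 0.32 and Eef1d at 0.22. For comparison, 10.9% of all genes that passed the floor were lower and 7.58% higher by 1.5-fold or more, and 52.8% were lower by any amount.

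Genes that build ribosomes were mostly lower. In the ribosome biogenesis list 28 of 34 genes were lower and 6 higher, with a median of -0.19, and 2 were at least 1.5-fold lower. Over all genes above the floor, 52.8% were lower by any amount and 10.9% by 1.5-fold or more. The share of this list at 1.5-fold was thus under the background. The rRNA methyltransferase Nop2 had 640 with OSU-HDAC42 and 1305 with vehicle (log2 -1.03), and the endonuclease Nob1, which matures 18S rRNA, had 211 and 379 (log2 -0.84). The processing factor Rrp9 differed by -0.54 and the nucleolar chaperone Nolc1 by 0.42. Mitochondrial ribosomal proteins, which form a separate ribosome, were lower in 54 and higher in 19 of 75 cases (median -0.14), with Mrps15 at -1.10, Mrpl39 at -0.79 and Mrps24 at -0.72. At least 1.5-fold lower were 8 of the 75, near the background of 10.9%. In the mTOR and S6 kinase list 8 of 13 genes were lower (median -0.14), beside 52.8% of all genes. Its genes included Mlst8, a subunit of both mTOR complexes, at -0.82, Tsc1 at -0.51, Myc at -0.49 and Rictor at 0.45. Larp1, which binds TOP mRNAs, at 0.029 and the S6 kinase Rps6kb1 at 0.12 were picked for mention after their values were seen.

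**Figure D4:**
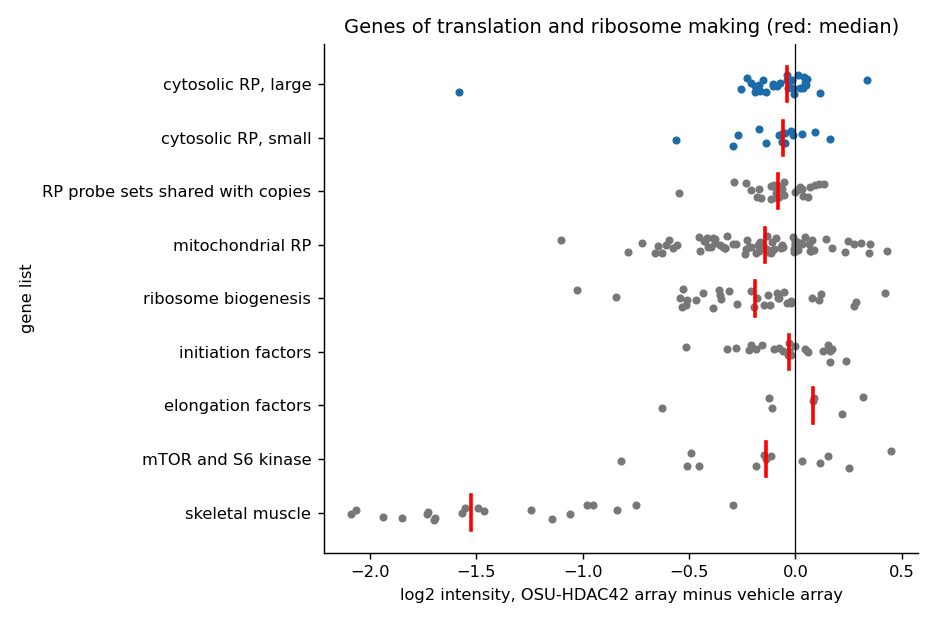
Log2 difference, OSU-HDAC42 minus vehicle, 1 point per gene or shared probe set above the expression floor, by list, with the median in red; RP stands for ribosomal protein. The cytosolic lists cluster near 0 with medians of -0.038 and -0.060 apart from Rpl3l and Rps4y2, the biogenesis and mitochondrial lists spread wider, and the skeletal muscle list lies near -1.52.

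Markers of other cells in the tissue moved beside these values. The squamous epithelium list, which defines the esophageal lining, had a median of -0.015 over 10 genes. Not all of them were level. The dimmer genes Ivl, at 293 and 194, and Evpl, at 962 and 1552, differed by 0.60 and -0.69. The keratin Krt13, at 14438 and 14947, was the brightest probe set outside the array controls. Smooth muscle markers were higher in 8 of 8 genes (median 0.62), fibroblast markers in 7 of 7 (median 0.50) and cell division genes in 7 of 7 above the floor (median 0.57). Over all genes above the floor, 46.7% were higher. Endothelial and immune lists had medians of -0.23 and 0.049 and were split. In the endothelial list 2 genes were higher and 3 lower, and in the immune list 3 were higher and 2 lower. The 3' over 5' intensity ratio of beta-actin, a sign of RNA degradation, was 6.29 with OSU-HDAC42 and 7.76 with vehicle. That of Gapdh was smaller, at 2.09 and 2.32. The part of cell makeup or RNA quality in the members' differences was not tested.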

How the data were processed

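Esophageal tissue was profiled on 2 arrays, 1 per group. The deposited tables hold linear intensities per probe set, as their range shows. Per the submitters' processing notes the tools were GCOS and RMA, with neither role nor version, and the scaling between arrays is not given in the sources used here. A lower limit of 16 was set before taking log2, which touched 28.4% and 29.2% of the 31042 non-control probe sets (OSU-HDAC42, vehicle). The other 57 are array controls. Gene names came from the platform annotation, updated by gene identifier through the RefSeq table of GRCr8; all 48 member symbols were found there. The arrays' number limits the precision, and with 1 per group nothing was tested. Named genes were the extreme members, the paralogs, the stalk, 5S and Diamond-Blackfan members, members with discordant probe sets, and up to 4 extreme genes of each other list, with Larp1, Rps6kb1 and further members added after their values were seen. Members and lists were chosen with earlier results of these data known. Start regions came from RefSeq (GRCr8). The difference tables were tested on simulated data. Python 3.11.15, pandas 2.3.3 and statsmodels 0.14.6 were used.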

Additional observations from a re-analysis of the deposited data

How the results depend on the processing

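The alternatives were array centring, quantile normalization, removal of a lowess trend, raising values to 32 or not at all, other probe set choices, a floor at the 75th percentile and a threshold of 1.5-fold; leaving out paralogs and adding shared probe sets were chosen after seeing the data. The member median ran from -0.060 to -0.027, and the gap between Rpl3l and Rpl3 from -1.64 to -1.55; it could not be computed where Rpl3l or its only probe set, whose name ends in a, was left out. Counts at 1.2-fold or more lower, 4 as reported, fell to 2 with the 75th percentile floor and to 1 without paralogs. The count was 3 with each array centred, where Rps27l at -0.25 was lost, and 3 without probe sets ending in x, s or a. With shared probe sets added it was 5 of 67. At 1.5-fold, 1 was lower and 0 higher. The single gene at least 1.2-fold higher, Rpl7l1, was lost (0 genes) with the mean over probe sets and without paralogs. With shared probe sets added, 20 of 67 were higher and 47 lower, beside 12 and 33 of 45. The fibroblast median was 0.29 with the mean over probe sets. For the fibroblast median the cause was not tested. Of the values of single members, 351 moved by less than the probe set SD and 3 by more (Rpl14 and Rps24 with the mean over probe sets, Rpsa without probe sets ending in x, s or a). Many of the 351 could not move. The raised values and the higher floor changed no member that was kept. Other probe set choices could change only genes with several probe sets, and centring shifted all members alike. The count is thus no measure of how stable the values are. Low signal left Rpl39l1 unmeasured. No paired analysis was possible because 1 array stood for each group.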
